A study of Mus musculus with 13 samples.

Results

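The 47 genes described here encode receptors for neurotransmitters: ionotropic and metabotropic glutamate receptors, GABA-A and GABA-B receptors, the glycine receptor beta subunit, and receptors for noradrenaline, acetylcholine, dopamine and purines. They were taken by symbol from a list of such genes, and all 47 were found among the 39171 genes of the deposited table. Drd1 stood there under its older symbol Drd1a. Expression was measured by RNA sequencing of 2 glial populations that were isolated from C57BL/6 spinal cord by flow cytometry. Astrocytes, the glia that surround synapses and take up transmitter, were sorted by a green fluorescent protein reporter of the astrocyte gene Aldh1l1 (Aldh1l1-GFP+), and microglia, the resident macrophages, by the surface protein CD11b, which other myeloid cells also carry. The animals were Il33 knockouts (KO), which lack the cytokine interleukin-33, or their wild-type (WT) littermates. The groups were 3 WT astrocyte, 4 KO astrocyte, 3 WT microglia and 3 KO microglia libraries, each a biological replicate. All microglia and 5 of the astrocyte libraries came from postnatal day 12; WT astrocytes 3 and KO astrocytes 2 came from day 9. Neither the sex of the animals nor whether a mouse gave both cell types is given in the sources used here. Levels are in FPKM, which divides the fragments of a gene by its length and by the size of the library and so allows genes of different length to be compared. Values of single libraries are listed in the order of their numbers.

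Transmitter receptors fall into ion channels built of several subunits, which open fast, and receptors that act through G proteins. An AMPA receptor is an assembly of the products of Gria1 to Gria4, a kainate receptor one of Grik1 to Grik5, and an NMDA receptor needs the Grin1 product beside Grin2 or Grin3 subunits. GABA-A receptors are assemblies of alpha, beta and other subunits, while the GABA-B receptor is a pair in which the Gabbr1 product binds GABA and the Gabbr2 product couples to the G protein. In astrocytes such receptors are known for calcium and cyclic AMP signals evoked by nearby synapses, and in microglia for control of process movement and of cytokine release.

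The populations matched their labels. Summed over 10 astrocyte markers (Aldoc and Slc1a2 the highest), astrocyte libraries stood at 6242 to 10868 FPKM and microglia libraries at 65.0 to 105 FPKM. Summed over 10 microglia markers (C1qb among the highest), the values were 8562 to 9223 FPKM in microglia and 8.54 to 63.9 FPKM in astrocytes. Il33 stood at 96.3, 113 and 108 FPKM in WT astrocytes and 2.28, 2.05, 0.424 and 0.733 FPKM in KO astrocytes (exact two-sided permutation test on FPKM, p = 0.0286, the smallest that 3 against 4 libraries can give). It was at most 1.26 FPKM in microglia, so the label of the microglia genotype could not be checked on it. Xist, the X-inactivation RNA of female cells, was at 268, 283 and 0.713 FPKM in WT microglia and 0.376, 0.366 and 0.145 FPKM in KO microglia, so 2 of the 3 WT libraries stood apart from the other 4 microglia libraries. In astrocytes Xist was at 0.370, 32.9 and 4.10 FPKM in WT and 0.133, 0.307, 10.1 and 32.4 FPKM in KO, a mixed picture in both genotypes. Markers of other cells were higher in some libraries. Summed over 15 neuron markers (Snap25 and Nefl the highest), KO astrocytes 1 stood at 459 FPKM against 53.8 to 182 FPKM in the other astrocyte libraries, and WT microglia 1 at 75.9 FPKM against 16.8 to 33.4 FPKM in the other microglia libraries. WT microglia 1 was also highest among microglia for 7 oligodendrocyte precursor markers (Olig2 and Vcan the highest), at 79.0 FPKM against 21.3 to 51.8 FPKM; astrocytes held 77.9 to 169 FPKM. The 10 oligodendrocyte markers (Mobp among the highest) summed to 1381 to 2498 FPKM in astrocytes, 254 to 371 FPKM in WT microglia and 509.7 to 893 FPKM in KO microglia. The part of oligodendrocytes and their precursors in the receptor levels of either cell type was not tested. The 8 border macrophage and monocyte markers (Pf4 and Mrc1 the highest) summed to 192 to 486 FPKM in WT microglia, 216 to 259 FPKM in KO microglia and at most 6.02 FPKM in astrocytes. Endothelial and mural, fibroblast and meninges, and ependymal markers summed to at most 87.2 FPKM per list in any library. Read depth is known only relative to the deepest library, KO microglia 2: astrocytes lay at 33.8% to 62.8% of it and microglia at 68.2% to 100%, so low values were noisier in astrocytes. Libraries of 1 group correlated across genes at 0.873 (WT microglia 1 and 3) or above, and no 2 held the same values.

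The 300 bases around the transcription start, most of them before it, are shown 5′ to 3′ on the gene's own strand, for the 5 genes on which the pattern across the 2 cell types turned. Adora3 (chr3:105904171-105904470, plus strand) was the receptor called higher in microglia, Gabbr1 (chr17:37045716-37046015, plus strand) had the highest mean of the 47 genes in both populations, and Gabbr2 (chr4:46991665-46991964, minus strand) encodes its partner. Gabra4 (chr5:71658259-71658558, minus strand) and Gabrb1 (chr5:71657671-71657970, plus strand) are neighbours in the GABA-A receptor cluster that led in astrocytes. The sequences are from RefSeq on GRCm38.p6, which held a promoter for 35 of the 47 genes (45 promoters). Another Gabrb1 promoter held there (chr5:71699682-71699981, plus strand) is not shown. Capitals mark GAGGAA or its reverse complement TTCCTC, the core bound by PU.1, the transcription factor of macrophages and microglia.
Adora3: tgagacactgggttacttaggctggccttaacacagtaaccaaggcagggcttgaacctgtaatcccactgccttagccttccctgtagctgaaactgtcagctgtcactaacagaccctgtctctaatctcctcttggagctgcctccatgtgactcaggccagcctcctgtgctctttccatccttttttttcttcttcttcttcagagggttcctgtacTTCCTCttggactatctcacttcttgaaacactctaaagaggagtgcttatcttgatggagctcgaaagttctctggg
Gabbr1: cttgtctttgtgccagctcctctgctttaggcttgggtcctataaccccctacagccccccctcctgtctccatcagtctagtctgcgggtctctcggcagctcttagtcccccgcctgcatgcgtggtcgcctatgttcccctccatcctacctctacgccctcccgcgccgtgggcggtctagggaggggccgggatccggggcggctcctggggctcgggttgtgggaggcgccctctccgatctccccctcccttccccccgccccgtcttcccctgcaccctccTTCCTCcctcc
Gabbr2: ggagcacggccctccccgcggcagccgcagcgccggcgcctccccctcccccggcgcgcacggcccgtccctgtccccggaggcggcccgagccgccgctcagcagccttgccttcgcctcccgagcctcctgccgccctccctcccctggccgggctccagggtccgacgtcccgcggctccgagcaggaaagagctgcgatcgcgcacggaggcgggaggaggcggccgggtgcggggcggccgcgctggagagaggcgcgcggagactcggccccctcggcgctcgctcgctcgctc
Gabra4: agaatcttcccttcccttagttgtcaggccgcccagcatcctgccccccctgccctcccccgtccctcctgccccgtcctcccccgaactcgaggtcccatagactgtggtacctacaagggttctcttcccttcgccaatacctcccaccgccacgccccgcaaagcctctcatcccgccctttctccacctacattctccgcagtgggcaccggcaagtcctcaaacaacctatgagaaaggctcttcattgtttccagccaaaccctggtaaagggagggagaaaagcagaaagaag
Gabrb1: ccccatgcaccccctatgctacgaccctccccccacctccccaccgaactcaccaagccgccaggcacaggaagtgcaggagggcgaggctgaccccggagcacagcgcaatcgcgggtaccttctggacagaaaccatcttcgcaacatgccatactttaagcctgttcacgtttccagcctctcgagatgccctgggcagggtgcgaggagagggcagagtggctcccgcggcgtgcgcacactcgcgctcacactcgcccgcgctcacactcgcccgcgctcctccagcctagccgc
The core was found in 28.3% of all 32851 promoters of this length, on either strand, and in 14 of the 45 receptor promoters (13 genes). In Adora3 it began 28 bases before the start and in Gabbr1 40 bases after it, both on the opposite strand. The Adora3 window had a GC content of 48.3% with 1 CpG, the Gabbr1 window 67.3% with 18 and the Gabbr2 window 80.3% with 46; the medians were 52.7% and 7 CpG over all promoters and 64.7% and 17 CpG over the receptor promoters. A match is a description of the letters and no sign of binding. The full NFI site was in 0.0365% of all promoters and the cyclic AMP response element TGACGTCA in 1.79%, neither in a receptor promoter. The SOX letters ACAATG were in 12.6% of all and 4 of 45 receptor promoters, and the TATA box letters TATAAA in 13.6% and 4; each was searched on both strands.

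Most of the receptor genes were higher in astrocytes: the WT astrocyte mean was above the WT microglia mean for 36 of the 47 and below it for 10. A group mean of at least 1 FPKM was reached by 33 of the 47 in WT astrocytes, 34 in KO astrocytes, 17 in WT microglia and 11 in KO microglia. Among all 39171 genes the counts in the same order were 12916, 13260, 15747 and 15160. The receptor genes counted in WT but not in KO microglia had WT means of 1.09 to 2.31 FPKM. A mean of at least 10 FPKM was reached by 18 in WT and 18 in KO astrocytes, but by 2 (Gabbr1 and Adora3) in WT and in KO microglia. The other extreme was made up of 8 genes whose mean stayed under 1 FPKM in all 4 groups: Grin2a, Grm2, Grm4, Grm8, Adra1d, Chrm3, Drd1 and Adora2a, with 1.47 FPKM as the highest value in any library. In the order of levels in WT astrocytes, Gabbr1 led at 370.2 ± 38.7 FPKM (SD, n = 3) and Gabbr2 followed at 138 ± 15.6 FPKM (SD, n = 3). The next were Gria4 (61.9 ± 7.18 FPKM (SD, n = 3)), Adora1 (59.3 ± 20.0 FPKM (SD, n = 3)), Gabrg1 (53.8 ± 14.6 FPKM (SD, n = 3)), Adra2a (46.6 ± 17.8 FPKM (SD, n = 3)) and Gria1 (41.4 ± 9.28 FPKM (SD, n = 3)), whose libraries overlapped from each one to the next. In WT microglia Gabbr1 (86.8 ± 59.0 FPKM (SD, n = 3)) stood first, followed by Adora3 (30.5 ± 10.03 FPKM (SD, n = 3)) and Adrb1 (8.73 ± 4.84 FPKM (SD, n = 3)). Gabbr1 overlapped Adora3 through WT microglia 1 alone.

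**Figure D1:**
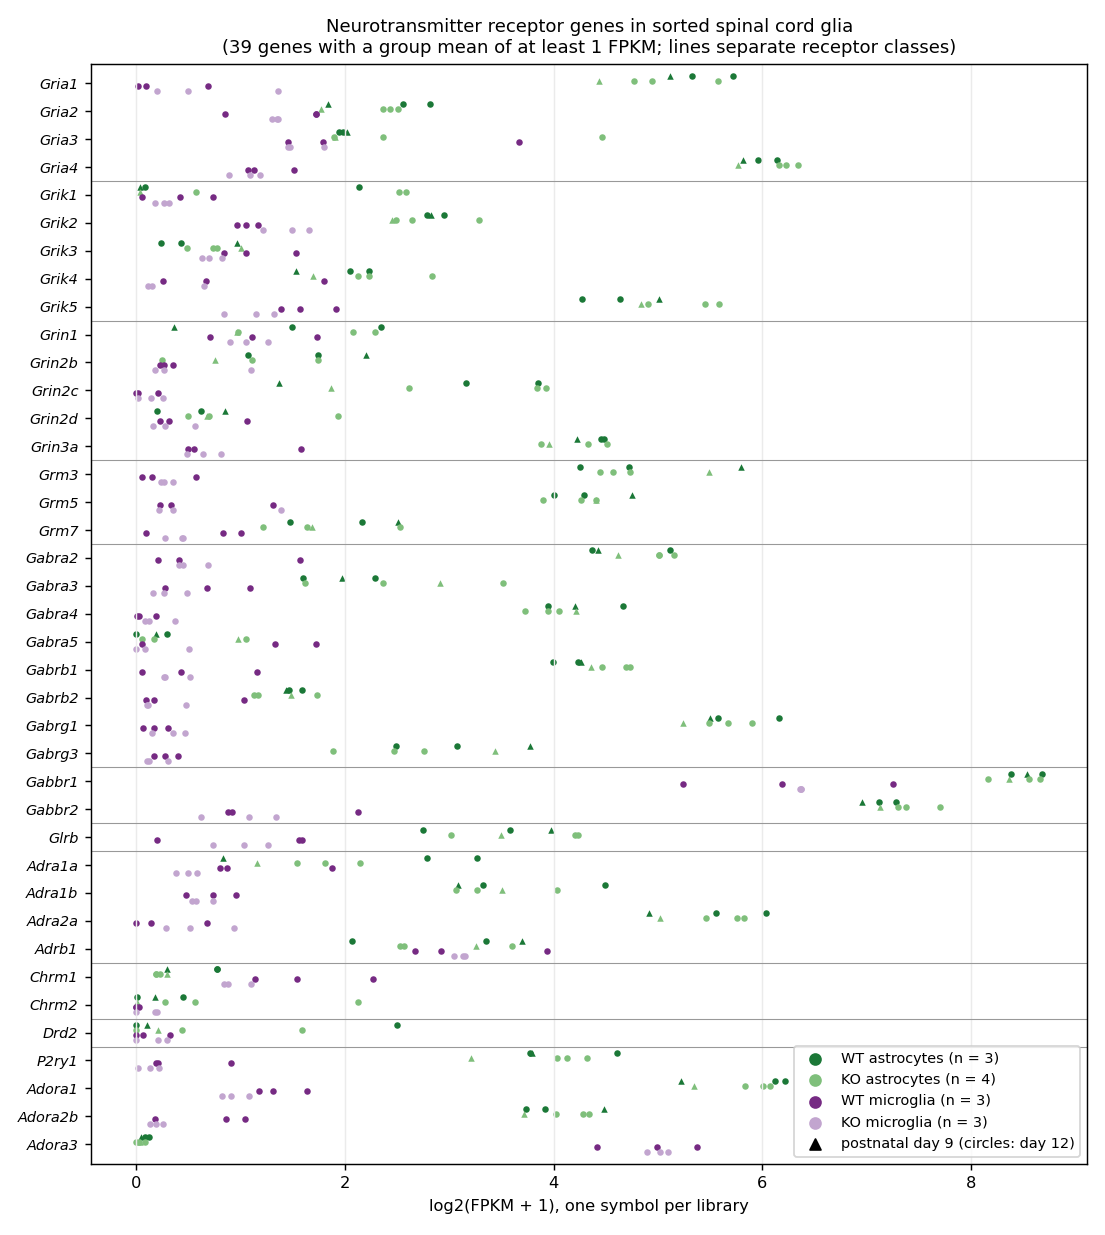
Level of the 39 receptor genes with a group mean of at least 1 FPKM, as log2(FPKM + 1) on the horizontal axis, with 1 symbol per library (dark green WT astrocytes, light green KO astrocytes, dark purple WT microglia, light purple KO microglia; triangles are the 2 libraries of postnatal day 9). Green symbols lie to the right of purple ones for most genes, Adora3 shows the opposite order, and Gabbr1 is far right in both.

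The 4 AMPA receptor subunits were dominated by Gria4 and Gria1 in astrocytes. Gria4 stood at 61.1, 69.4 and 55.1 FPKM in WT astrocytes and 70.3, 53.4, 80.1 and 73.8 FPKM in KO astrocytes, and at 1.85, 1.10 and 1.18 FPKM in WT microglia and 1.27, 1.13 and 0.855 FPKM in KO microglia. Gria1 stood at 38.96, 51.7 and 33.6 FPKM in WT astrocytes and 26.2, 20.6, 46.7 and 29.7 FPKM in KO astrocytes. Its level in microglia was 0.613, 0.0642 and 0.00879 FPKM in WT microglia and 0.409, 1.57 and 0.144 FPKM in KO microglia. For both genes each astrocyte library lay far above each microglia library. Gria2 encodes the subunit that makes the channel impermeable to calcium. Its values were 4.88, 6.03 and 2.57 FPKM in WT astrocytes and 4.14, 2.41, 4.69 and 4.38 FPKM in KO astrocytes, and 2.31, 2.30 and 0.801 FPKM in WT microglia and 1.55, 1.46 and 1.56 FPKM in KO microglia. Its highest astrocyte libraries were those of day 12, and each astrocyte library was above each microglia library. Of the summed AMPA receptor FPKM in the 7 astrocyte libraries, Gria4 took 53.4% to 67.5%, Gria1 21.5% to 39.7% and Gria2 2.72% to 4.64%. These shares describe RNA per length and not the subunits of assembled channels. Gria3 stood apart because 1 library of each cell type was high. It was at 2.84, 2.94 and 3.05 FPKM in WT astrocytes and 21.0, 2.74, 4.14 and 2.72 FPKM in KO astrocytes, and at 11.7, 1.74 and 2.46 FPKM in WT microglia and 2.48, 1.74 and 1.78 FPKM in KO microglia. KO astrocytes 1 and WT microglia 1 were the high ones, the same 2 libraries that led their cell type in summed neuron markers; the part of those cells in the Gria3 values was not tested.

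Among the kainate receptor subunits Grik5, which binds glutamate with high affinity but forms no channel alone, led in astrocytes. It stood at 18.3, 23.8 and 31.1 FPKM in WT astrocytes and 42.7, 27.6, 29.0 and 46.8 FPKM in KO astrocytes. Microglia had 2.76, 1.97 and 1.61 FPKM in WT microglia and 0.789, 1.22 and 1.49 FPKM in KO microglia. It made up 57.4% to 78.2% of the summed kainate receptor FPKM of the astrocyte libraries. Grik2, a subunit that can form channels by itself, was at 6.74, 5.90 and 6.10 FPKM in WT astrocytes and 5.25, 4.45, 8.74 and 4.62 FPKM in KO astrocytes and at 1.24, 0.954 and 1.07 FPKM in WT microglia and 1.32, 2.16 and 1.80 FPKM in KO microglia. Grik4, the other high-affinity subunit, was at 3.13, 3.68 and 1.89 FPKM in WT astrocytes and 6.12, 2.24, 3.37 and 3.68 FPKM in KO astrocytes and at 2.47, 0.192 and 0.589 FPKM in WT microglia and 0.111, 0.566 and 0.0808 FPKM in KO microglia. Both were higher in the astrocytes, except that WT microglia 1 reached into the astrocyte range for Grik4. Grik1 varied most between astrocyte libraries, at 3.38, 0.0616 and 0.0253 FPKM in WT astrocytes and 4.98, 0.0234, 0.487 and 4.73 FPKM in KO astrocytes against 0.338, 0.0386 and 0.660 FPKM in WT microglia and 0.132, 0.240 and 0.204 FPKM in KO microglia. It exceeded 3 FPKM in WT astrocytes 1 and KO astrocytes 1 and 4 and stayed under 0.5 FPKM in the other 4 astrocyte libraries, both day 9 libraries among them. Grik3 was low in all groups, at 0.349, 0.174 and 0.953 FPKM in WT astrocytes and 0.664, 1.002, 0.399 and 0.712 FPKM in KO astrocytes and 1.89, 1.08 and 0.784 FPKM in WT microglia and 0.622, 0.545 and 0.769 FPKM in KO microglia.

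The NMDA receptor genes of astrocytes were led by a subunit other than the obligatory one. Grin3a, which lowers calcium flow through the receptor, stood at 21.3, 20.9 and 17.6 FPKM in WT astrocytes and 19.1, 14.5, 21.7 and 13.7 FPKM in KO astrocytes, and at 1.99, 0.463 and 0.408 FPKM in WT microglia and 0.402, 0.555 and 0.758 FPKM in KO microglia. Grin2c, a glutamate-binding subunit known from astrocytes, stood at 13.4, 7.90 and 1.58 FPKM in WT astrocytes and 14.2, 2.64, 13.3 and 5.12 FPKM in KO astrocytes. The microglia libraries held 0, 0.0115 and 0.153 FPKM in WT microglia and 0.0121, 0.195 and 0.101 FPKM in KO microglia. The day 9 libraries were the lowest of the 7 for Grin2c. Grin1, without which no NMDA receptor forms, was at 4.09, 1.81 and 0.286 FPKM in WT astrocytes and 3.89, 0.946, 0.959 and 3.20 FPKM in KO astrocytes and at 2.32, 1.15 and 0.627 FPKM in WT microglia and 1.40, 0.867 and 1.07 FPKM in KO microglia, with overlapping cell types. Grin3a thus took 50.3% to 74.8% and Grin1 1.20% to 12.3% of the summed NMDA receptor FPKM in astrocytes. The antisense gene Grin1os covers 13.5% of the Grin1 exons, and strand-specific counting is not stated, so the Grin1 values are uncertain. Grin2b, the subunit typical of young neurons, was at 1.10, 2.34 and 3.61 FPKM in WT astrocytes and 0.185, 0.683, 2.34 and 1.15 FPKM in KO astrocytes and at 0.172, 0.205 and 0.278 FPKM in WT microglia and 1.14, 0.128 and 0.198 FPKM in KO microglia. Grin2d was at 0.145, 0.540 and 0.802 FPKM in WT astrocytes and 0.617, 0.596, 0.406 and 2.82 FPKM in KO astrocytes and at 1.09, 0.167 and 0.245 FPKM in WT microglia and 0.477, 0.114 and 0.205 FPKM in KO microglia; KO astrocytes 4 stood out among its group for Grin2d. Grin2a, typical of mature neurons, reached 0.263 FPKM at most.

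Of the metabotropic glutamate receptors, astrocytes had Grm3 and Grm5. Grm3, a Gi-coupled receptor, stood at 18.1, 25.4 and 54.4 FPKM in WT astrocytes and 22.7, 43.8, 20.7 and 25.6 FPKM in KO astrocytes, and at 0.109, 0.0360 and 0.490 FPKM in WT microglia and 0.272, 0.177 and 0.1999 FPKM in KO microglia. Grm5, a Gq-coupled receptor that releases calcium from stores, stood at 18.6, 14.99 and 25.9 FPKM in WT astrocytes and 18.1, 20.2, 20.2 and 13.9 FPKM in KO astrocytes. In microglia it was at 1.48, 0.173 and 0.255 FPKM in WT microglia and 0.159, 0.276 and 1.62 FPKM in KO microglia. Both were higher in each astrocyte library than in each microglia library, and the day 9 libraries held the 2 highest Grm3 values. Grm7, a Gi-coupled receptor best known from axon terminals, was lower, at 1.78, 3.49 and 4.67 FPKM in WT astrocytes and 2.12, 2.22, 1.31 and 4.77 FPKM in KO astrocytes and 0.782, 1.002 and 0.0660 FPKM in WT microglia and 0.350, 0.359 and 0.211 FPKM in KO microglia. Grm3 took 46.1% to 64.7% and Grm5 29.8% to 47.4% of the summed metabotropic FPKM of astrocytes. Grm2, Grm4 and Grm8 were the genes of this class under 1 FPKM in every group.

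**Figure D2:**
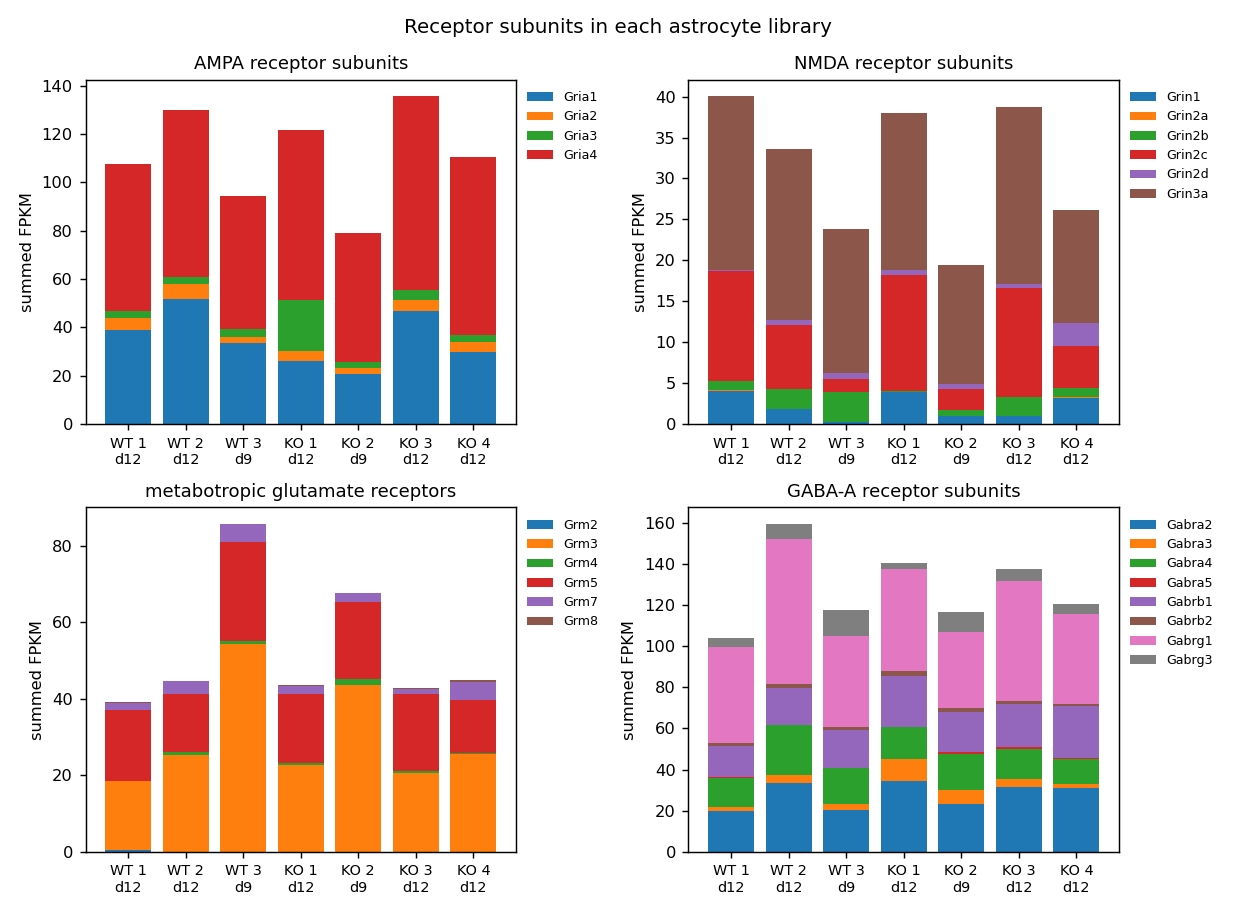
Summed FPKM of AMPA, NMDA, metabotropic glutamate and GABA-A receptor genes in each of the 7 astrocyte libraries, stacked by gene (d9 and d12 give the postnatal day). Gria4 with Gria1, Grin3a, Grm3 with Grm5, and Gabrg1 with Gabra2 form the largest blocks, Gria3 is large in KO 1 alone, and the Grm3 block is largest in the 2 day 9 libraries.

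The GABA-A receptor genes of astrocytes were those of 1 chromosomal cluster. Gabrg1, Gabra2, Gabra4 and Gabrb1 lie side by side on chromosome 5 (chr5:70751047-72149037, GRCm38, GENCODE M21), and these 4 of 8 genes held 83.6% to 93.5% (median 91.1%) of the summed GABA-A FPKM in the 7 astrocyte libraries. Gabrg1, the gamma subunit of the cluster, stood at 46.6, 70.7 and 44.2 FPKM in WT astrocytes and 49.8, 36.9, 58.7 and 43.8 FPKM in KO astrocytes, and at 0.0426, 0.125 and 0.231 FPKM in WT microglia and 0.379, 0.111 and 0.278 FPKM in KO microglia. Gabra2, an alpha subunit, stood at 19.6, 33.6 and 20.5 FPKM in WT astrocytes and 34.6, 23.5, 31.3 and 31.1 FPKM in KO astrocytes. The microglia levels were 1.97, 0.154 and 0.323 FPKM in WT microglia and 0.605, 0.365 and 0.330 FPKM in KO microglia. No microglia library came near an astrocyte library for either gene. Gabra4 stood at 14.4, 24.3 and 17.4 FPKM in WT astrocytes and 15.6, 17.6, 14.4 and 12.2 FPKM in KO astrocytes, and at 0.00502, 0.138 and 0.0158 FPKM in WT microglia and 0.290, 0.0594 and 0.0866 FPKM in KO microglia. Gabrb1, its neighbour and the cluster's beta subunit, stood at 14.96, 17.7 and 18.2 FPKM in WT astrocytes and 24.9, 19.5, 21.0 and 25.6 FPKM in KO astrocytes. In the microglia libraries it was at 1.22, 0.0344 and 0.343 FPKM in WT microglia and 0.429, 0.210 and 0.199 FPKM in KO microglia. The 5′ ends of these 2 genes overlap head to head on opposite strands by 46 exonic bases, a small part of either transcript. The 4 genes outside the cluster were lower. Gabrg3 (chromosome 7) stood at 4.62, 7.42 and 12.7 FPKM in WT astrocytes and 2.69, 9.82, 5.78 and 4.55 FPKM in KO astrocytes, highest in the 2 day 9 libraries, and at 0.213, 0.123 and 0.318 FPKM in WT microglia and 0.0710, 0.234 and 0.0879 FPKM in KO microglia. Gabra3 (chromosome X) stood at 2.03, 3.88 and 2.91 FPKM in WT astrocytes and 10.4, 6.53, 4.15 and 2.06 FPKM in KO astrocytes, highest in KO astrocytes 1 and 2, and at 1.12, 0.206 and 0.595 FPKM in WT microglia and 0.402, 0.202 and 0.120 FPKM in KO microglia. The Gabrg3 and Gabra3 maxima in astrocytes were 12.7 and 10.4 FPKM, against a minimum of 12.2 FPKM for Gabra4, the lowest of the cluster. Gabrb2 (chromosome 11) was at 1.76, 2.01 and 1.70 FPKM in WT astrocytes and 2.31, 1.79, 1.24 and 1.18 FPKM in KO astrocytes and at 1.04, 0.0641 and 0.125 FPKM in WT microglia and 0.389, 0.0739 and 0.0782 FPKM in KO microglia. Gabra5 (chromosome 7) was at 0.229, 0 and 0.140 FPKM in WT astrocytes and 0.122, 0.959, 1.07 and 0.0355 FPKM in KO astrocytes. Microglia stood at 0.0410, 2.31 and 1.52 FPKM in WT microglia and 0, 0.0560 and 0.421 FPKM in KO microglia, so WT microglia 2 and 3 held its highest values. A gene on the opposite strand overlaps a small part of the Gabra5 exons, as one does for Chrm1.

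The 2 GABA-B receptor genes were expressed together in astrocytes and apart in microglia. Gabbr1 stood at 332, 409 and 369 FPKM in WT astrocytes and 286, 328, 403 and 375 FPKM in KO astrocytes, and at 36.7, 71.8 and 152 FPKM in WT microglia and 81.2, 81.9 and 81.8 FPKM in KO microglia. Gabbr2 stood at 154, 138 and 123 FPKM in WT astrocytes and 206, 139, 157 and 165 FPKM in KO astrocytes. Its microglia values were 3.36, 0.836 and 0.884 FPKM in WT microglia and 1.11, 1.53 and 0.531 FPKM in KO microglia. The cell types did not overlap for either gene, but Gabbr1 in microglia kept 10.3% to 42.5% of its astrocyte mean and Gabbr2 0.344% to 2.17%. Gabbr2 was therefore 24.9% to 42.0% of the summed GABA-B FPKM in astrocytes and 0.579% to 8.37% in microglia, where the highest share was that of WT microglia 1. For comparison, the astrocyte markers stood at a median of 0.531% to 1.17% of their astrocyte level in the 6 microglia libraries. That range of medians holds Gabbr2 in WT microglia 2 and 3 and KO microglia 1 and 2, with WT microglia 1 above it and KO microglia 3 below. Single astrocyte markers ran from 0.110% to 8.68%, a range that holds Gabbr2 in all 6 libraries. Astrocyte RNA in the microglia sorts was not tested as a source of the low Gabbr2 values.

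Glrb, the beta subunit that anchors glycine receptors at synapses, stood at 11.002, 5.72 and 14.7 FPKM in WT astrocytes and 17.4, 10.3, 17.8 and 7.06 FPKM in KO astrocytes, and at 1.95, 1.998 and 0.144 FPKM in WT microglia and 0.667, 1.0499 and 1.39 FPKM in KO microglia; no microglia library reached an astrocyte library. The adrenergic receptors divided by subtype. Adra2a, the Gi-coupled alpha-2A receptor, stood at 64.6, 46.0 and 29.1 FPKM in WT astrocytes and 55.7, 31.4, 53.2 and 42.9 FPKM in KO astrocytes, and at 0.602, 0.1004 and 0 FPKM in WT microglia and 0.918, 0.425 and 0.220 FPKM in KO microglia. Adra1b, a Gq-coupled alpha-1 receptor, stood at 8.97, 21.4 and 7.49 FPKM in WT astrocytes and 15.4, 10.4, 8.61 and 7.38 FPKM in KO astrocytes. Microglia libraries stood at 0.668, 0.389 and 0.935 FPKM in WT microglia and 0.664, 0.449 and 0.489 FPKM in KO microglia. Both were higher in each astrocyte library than in each microglia library. Adra1a, of the same alpha-1 class, was at 5.88, 8.59 and 0.775 FPKM in WT astrocytes and 1.91, 1.23, 3.41 and 2.49 FPKM in KO astrocytes and at 0.824, 0.741 and 2.66 FPKM in WT microglia and 0.493, 0.298 and 0.411 FPKM in KO microglia. WT microglia 1 and 3 lay within its astrocyte range. Adrb1, the Gs-coupled beta-1 receptor, was at 9.17, 3.19 and 11.96 FPKM in WT astrocytes and 4.92, 8.53, 11.2 and 4.76 FPKM in KO astrocytes. It stood at 6.55, 5.37 and 14.3 FPKM in WT microglia and 7.74, 7.26 and 7.90 FPKM in KO microglia. Its cell types overlapped, and in both groups of microglia it came next after Gabbr1 and Adora3. In the summed adrenergic FPKM, Adra2a held 58.1% to 73.9% in astrocytes and Adrb1 75.8% to 87.6% in microglia. The muscarinic and dopamine receptors were low. Chrm1, a Gq-coupled acetylcholine receptor, was at 0.706, 0.709 and 0.221 FPKM in WT astrocytes and 0.136, 0.223, 0.173 and 0.138 FPKM in KO astrocytes. The microglia had 1.90, 1.20 and 3.82 FPKM in WT microglia and 0.836, 0.787 and 1.14 FPKM in KO microglia, so each microglia library exceeded each astrocyte library; its mean over all 13 libraries was under the 1 FPKM needed for the cell type test. Chrm2, which is Gi-coupled, was at 0.00614, 0.366 and 0.131 FPKM in WT astrocytes and 3.36, 0.00489, 0.475 and 0.208 FPKM in KO astrocytes and at 0.0174, 0 and 0 FPKM in WT microglia and 0, 0.144 and 0.131 FPKM in KO microglia, with KO astrocytes 1 far above the rest. Drd2, a Gi-coupled dopamine receptor, was at 0, 4.64 and 0.0695 FPKM in WT astrocytes and 2.0004, 0.156, 0.355 and 0 FPKM in KO astrocytes and at 0.253, 0.0481 and 0 FPKM in WT microglia and 0.154, 0 and 0.228 FPKM in KO microglia, so only WT astrocytes 2 and KO astrocytes 1 exceeded 1 FPKM.

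The 5 purine receptor genes listed here are only a part of that class, and they divided between the 2 cell types. Adora1, the Gi-coupled adenosine A1 receptor, stood at 68.3, 73.1 and 36.4 FPKM in WT astrocytes and 63.2, 39.7, 66.5 and 56.1 FPKM in KO astrocytes, and at 1.48, 1.26 and 2.10 FPKM in WT microglia and 0.767, 0.874 and 1.12 FPKM in KO microglia. Adora2b, the Gs-coupled low-affinity A2B receptor, stood at 14.1, 12.3 and 21.3 FPKM in WT astrocytes and 19.2, 12.1, 15.3 and 18.4 FPKM in KO astrocytes, and at 1.054, 0.134 and 0.815 FPKM in WT microglia and 0.0945, 0.190 and 0.136 FPKM in KO microglia. P2ry1, a Gq-coupled ADP receptor, stood at 23.4, 12.7 and 12.8 FPKM in WT astrocytes and 18.9, 8.25, 15.4 and 16.4 FPKM in KO astrocytes. Microglia held 0.877, 0.154 and 0.139 FPKM in WT microglia and 0.0123, 0.0909 and 0.162 FPKM in KO microglia. All 3 were higher in each astrocyte library than in each microglia library. Adora3, the Gi-coupled A3 receptor, had the reverse pattern, at 0.0603, 0.0862 and 0.0277 FPKM in WT astrocytes and 0.0161, 0.0260, 0.0598 and 0 FPKM in KO astrocytes. Its values were 30.7, 40.4 and 20.3 FPKM in WT microglia and 28.7, 31.4 and 33.3 FPKM in KO microglia. It made up 86.7% to 97.0% of the summed purine receptor FPKM of the 5 genes in microglia and at most 0.0877% in astrocytes. The gene Tmigd3 shares 20.9% of the Adora3 exon length on the same strand and carried the symbol Adora3 on a second row of the table; it stood at 2.16 to 5.67 FPKM in microglia and at most 0.714 FPKM in astrocytes. Reads of the shared part could be split between the 2, so the Adora3 level is uncertain by that part. For Adora1, Mybph covers 20.1% of its exons on the opposite strand. Border macrophage markers were present in all microglia libraries, as given above, and their part in the Adora3 level was not tested.

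WT microglia and WT astrocytes were compared with limma on log2(FPKM + 1) with 1 model for the 13 libraries that held age as a further term, over genes with a mean of at least 1 FPKM, with Benjamini-Hochberg adjustment over all genes and a threshold of 0.05. Of 33 receptor genes tested, 27 were lower and 1, Adora3, was higher in microglia, against 24.5% lower and 29.1% higher (53.6% called in all) among all 16258 genes tested. The median difference was -3.01 over the 33 genes and 0.21 over all genes. A gene that passed the level filter through astrocytes alone was bound to differ, so the count over the 33 describes them and does not test the list; the other 14 were too low to be tested. Among the genes with large differences, microglia minus astrocytes on the log2(FPKM + 1) scale, were Gabbr2 at -5.91 (SE 0.34, adjusted p = 2.11e-07), Gabrg1 at -5.70 (SE 0.22, adjusted p = 1.23e-08) and Adra2a at -5.48 (SE 0.27, adjusted p = 6.49e-08). Others were Gria1 at -5.30 (SE 0.36, adjusted p = 6.48e-07), Gria4 at -4.85 (SE 0.19, adjusted p = 1.43e-08) and Adora1 at -4.74 (SE 0.19, adjusted p = 1.75e-08). Gabbr1 was lower by less, at -2.32 (SE 0.42, adjusted p = 0.000791), and Adora3 was higher at 4.83 (SE 0.26, adjusted p = 1.02e-07). Over the alternatives Gabbr2 ran from -6.65 to -5.69, Gabrg1 from -8.04 to -5.51, Adra2a from -7.78 to -5.29, Gria1 from -7.64 to -5.17 and Adora3 from 4.48 to 7.496, so the order of these genes depended on the setting. By class, the test called lower 3 of 4 AMPA, 3 of 4 kainate, 3 of 4 NMDA, 3 of 3 metabotropic glutamate, 6 of 7 GABA-A and 2 of 2 GABA-B genes, Glrb, 3 of 4 adrenergic and 3 of 4 purine receptor genes among those tested. The 5 that did not pass were Gabra3 at -1.20 (SE 0.47, adjusted p = 0.0539), Gria3 at 0.16 (SE 0.73, adjusted p = 0.881), Grin1 at -0.61 (SE 0.45, adjusted p = 0.279), Grik1 at -0.85 (SE 0.67, adjusted p = 0.308) and Adrb1 at 0.35 (SE 0.46, adjusted p = 0.537). Over both genotypes, 26 of the 33 did not overlap between the 7 astrocyte and 6 microglia libraries (25 lower and 1 higher in microglia), against 43.5% of all genes (20.1% lower, 23.4% higher). In bulk sorted samples a smaller number of expressing cells and less RNA per cell cannot be told apart. All-gene medians shift with scaling: quantile normalisation gave an all-gene median of -0.04 and a split of 3879 higher and 4875 lower genes, against 4737 and 3980 on the deposited scale. On that scale FPKM summed over all genes was 1.683e+06 to 3.837e+06 in astrocyte libraries and 1.189e+06 to 1.43e+06 in microglia libraries. The top gene alone took 11.61% to 38.88% of a library's sum. The 18 genes with at least 10 FPKM in astrocytes stood at a median of 5.78% of their astrocyte mean in WT microglia 1 and of 0.874% to 1.84% in the other 5 microglia libraries. Leaving out WT microglia 1 gave 28 calls of 33 tested, with Grin2b lost and Gabra3 gained, and leaving out KO astrocytes 1 gave 28 of 31 tested, Gabra3 among them.

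Of the 28 calls, 22 held under each alternative in which the gene was tested. The other 6 were genes of a few FPKM in astrocytes. Gria2 (-1.22, adjusted p = 0.00350 with limma) lost its call in the WT day 12 libraries alone (-1.25, adjusted p = 0.0719). Grik4 (-1.25, adjusted p = 0.0272 with limma) lost its call without WT astrocytes 1 or 2 or WT microglia 2 or 3 and in the WT day 12 libraries alone (-1.32 to -0.92, adjusted p = 0.0579 to 0.153). Grin2b (-1.31, adjusted p = 0.0412 with limma) lost its call without KO astrocytes 2 or 4, KO microglia 3 or WT microglia 1, 2 or 3 (-1.35 to -1.12, adjusted p = 0.0520 to 0.0872). Neuronal RNA differed between libraries as given above, and its part in the Grin2b, Grik4 and Grm7 levels was not tested. Grm7 (-1.32, adjusted p = 0.0247 with limma) lost its call without KO astrocytes 2, WT astrocytes 2 or 3 or WT microglia 3 and in the WT day 12 libraries alone (-1.18 to -1.04, adjusted p = 0.0558 to 0.133). Gabrb2 (-1.06, adjusted p = 0.0304 with limma) lost its call without WT astrocytes 1 or WT microglia 2 or 3 (-1.07 to -0.89, adjusted p = 0.0732 to 0.0868). Adra1a (-1.57, adjusted p = 0.00933 with limma) lost its call without WT astrocytes 2 (-1.22, adjusted p = 0.0609). In the other direction, Gabra3 passed without KO astrocytes 1 or 4 or WT microglia 1 and with a pseudocount of 0.1 and with quantile normalisation (-2.11 to -1.12, adjusted p = 0.00684 to 0.0475), and Grin1 passed with quantile normalisation (-1.26, adjusted p = 0.0289). Gria3 turned to -0.53 (adjusted p = 0.546) without WT microglia 1 and to -0.37 (adjusted p = 0.704) with quantile normalisation, and Adrb1 to -0.17 (adjusted p = 0.788) without WT astrocytes 2 and to -0.025 (adjusted p = 0.988) without WT microglia 3; neither passed the threshold with limma.

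Loss of Il33 was compared with WT within each cell type. The differences are KO minus WT on the log2(FPKM + 1) scale. Xist was high in 2 WT microglia libraries and in none of the KO ones, so genotype and sex may overlap in part in microglia, and the part of sex was not tested. In microglia (3 against 3), 0 of the 13 receptor genes tested passed the threshold and 0 had an unadjusted p under 0.05 with limma; among all genes 0.0818% passed and 7.96% had such a p. The 3 KO libraries lay apart from the 3 WT libraries for 4 of the 13 genes, against 15.9% of all genes: Grik2 was higher in KO (8.41% of all genes) and Adora1, Chrm1 and Grik5 were lower (7.48%). Adora1 and Chrm1 had KO means under 1 FPKM and passed the level filter through WT alone. For these genes the separation describes the libraries and tests nothing. Chrm1, at 2.31 ± 1.36 FPKM (SD, n = 3) in WT and 0.919 ± 0.189 FPKM (SD, n = 3) in KO microglia, differed by -0.71 (SE 0.38, adjusted p = 0.648). Grik5 differed by -0.52 (SE 0.30, adjusted p = 0.671), Adora1 by -0.44 (SE 0.29, adjusted p = 0.733) and Grik2 by 0.39 (SE 0.28, adjusted p = 0.739). The 2 abundant genes were close: Adora3 differed by 0.08 (SE 0.27, adjusted p = 0.943) and Gabbr1 by 0.14 (SE 0.49, adjusted p = 0.945), and Gabbr1 varied from 36.7 to 152 FPKM among WT libraries but only from 81.2 to 81.9 FPKM among KO libraries. The direction of both turned when 1 library was left out, to -0.35 (adjusted p = 0.669) for Gabbr1 without WT microglia 1 and to -0.18 (adjusted p = 0.767) for Adora3 without WT microglia 3. Gria3 was the 1 receptor gene among the 483 genes of the authors' deposited table for microglia. That authors' deposited table puts WT at 486 and KO at 187 mean normalised counts, a log2 fold change of WT over KO of 1.17 and an adjusted p of 0.000751. In FPKM the difference with limma was -0.73 (SE 0.60, adjusted p = 0.739), and the library values show that it rested on WT microglia 1, at 11.7 FPKM against 1.74 and 2.46 FPKM in the other WT libraries. Without that library it was -0.046 (adjusted p = 0.952). The authors' deposited table for microglia also lists the neuron markers Snap25 and Slc6a5. It puts Snap25 at 612 in WT and 141 in KO mean normalised counts, and Slc6a5 at 80.4 and 18.9. The part of neuronal RNA in the Gria3 difference was not tested.

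**Figure D3:**
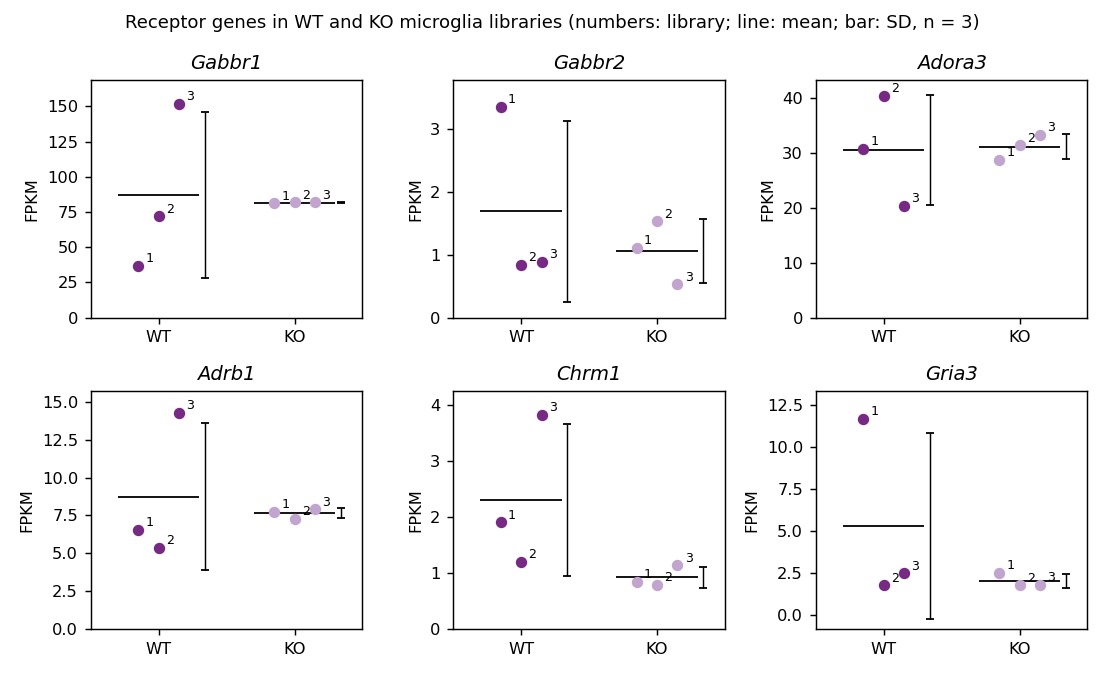
Level in FPKM of 6 receptor genes in the 3 WT and 3 KO microglia libraries (points, numbered by library), with the mean as a line and the SD as a bar beside it. Gabbr1 and Adora3 are high in all 6 libraries, Gabbr2 stays under 4 FPKM, Chrm1 and Adrb1 peak in WT library 3, and Gria3 and Gabbr2 peak in WT library 1.

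In astrocytes (4 KO against 3 WT, with age as a covariate), 0 of 33 receptor genes passed the threshold and 0 had an unadjusted p under 0.05 with limma, against 0.0224% and 4.19% of all genes. The libraries of the genotypes did not overlap for 1 gene, Gabrb1, against 4.68% of all genes (2.32% higher and 2.36% lower in KO); it was at 22.7 ± 2.93 FPKM (SD, n = 4) in KO and 17.0 ± 1.75 FPKM (SD, n = 3) in WT and differed by 0.39 (SE 0.21, adjusted p = 0.921). The largest receptors in astrocytes were close between genotypes. Gabbr1 differed by -0.10 (SE 0.17, adjusted p = 0.944), Gabbr2 by 0.23 (SE 0.15, adjusted p = 0.921), Gria4 by 0.12 (SE 0.15, adjusted p = 0.932) and Adora1 by -0.10 (SE 0.16, adjusted p = 0.943). Gria1, at 30.8 ± 11.3 FPKM (SD, n = 4) in KO and 41.4 ± 9.28 FPKM (SD, n = 3) in WT, differed by -0.50 (SE 0.25, adjusted p = 0.921) and Grik5 by 0.56 (SE 0.29, adjusted p = 0.921); both sets of libraries overlapped. Of the receptor genes, 0 stood among the 10 genes of the authors' deposited table for astrocytes. Whether the genotype difference was another one in microglia than in astrocytes was tested by the interaction term in the fit of all 13 libraries. Of 33 receptor genes 0 passed with limma, against 0.141% of all genes, and 1 had an unadjusted p under 0.05, against 6.62%. That gene was Grik5, at -1.08 (SE 0.39, adjusted p = 0.709) and an unadjusted p of 0.0199 from limma, with a lower level in KO microglia and a higher mean in KO astrocytes. A p that misses the threshold does not show that a gene was equal in KO and WT.

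**Figure D4:**
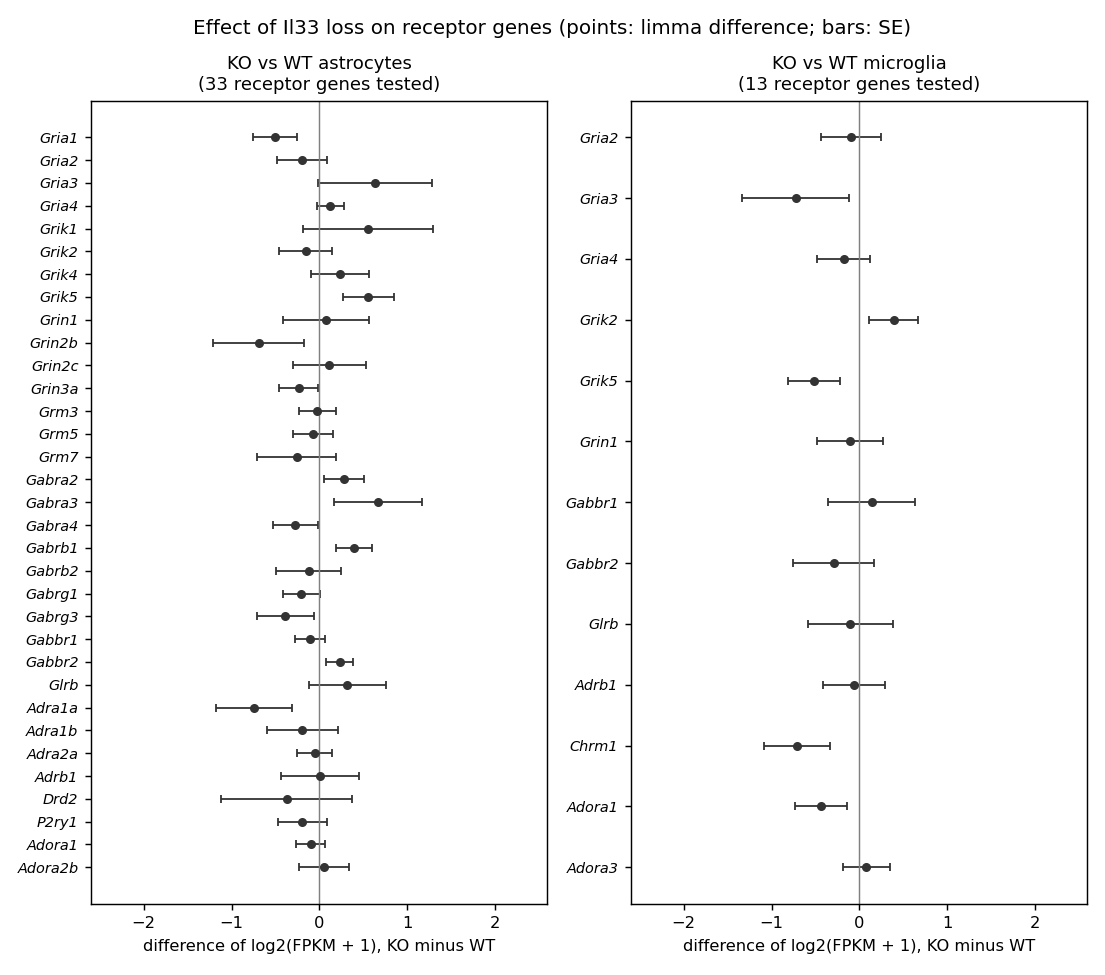
Difference between KO and WT on the log2(FPKM + 1) scale (points, limma) with its standard error (bars) for the 33 receptor genes tested in astrocytes and the 13 tested in microglia; 0 means no difference. Points lie on both sides of 0 in both panels, and 0 of the genes passed the threshold of 0.05 for the adjusted p in either panel.

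Age was compared within astrocytes, between 1 WT and 1 KO library of day 9 and 5 libraries of day 12, with genotype in the fit. With limma 0 of 33 receptor genes passed the threshold, against 0.097% of all genes, and 7 had an unadjusted p under 0.05, against 8.61%. The day 9 libraries did not overlap the day 12 libraries for 11 of the 33, 2 higher and 9 lower at day 9, against 14.7% of all genes (6.44% higher and 8.27% lower). The 2 higher genes were Grm3, with a mean of 49.1 FPKM at day 9 against 22.5 FPKM at day 12, and Gabrg3, with 11.2 FPKM at day 9 against 5.01 FPKM at day 12. Grm3 differed by 1.09 (SE 0.23, adjusted p = 0.240) and Gabrg3 by 1.03 (SE 0.36, adjusted p = 0.486), day 9 minus day 12. Both day 9 libraries, 1 of each genotype, lay above all others for these 2 genes. Adora1 had a mean of 38.0 FPKM at day 9 against 65.4 FPKM at day 12 and differed by -0.77 (SE 0.18, adjusted p = 0.284). Adra2a had 30.2 FPKM at day 9 against 52.5 FPKM at day 12 and differed by -0.77 (SE 0.22, adjusted p = 0.376). Grin2c had 2.11 FPKM at day 9 against 10.8 FPKM at day 12 and differed by -1.85 (SE 0.46, adjusted p = 0.297). These 3 genes were lower in both day 9 libraries than in any day 12 library. Adra1a (1.005 FPKM at day 9 against 4.46 FPKM at day 12, a difference of -1.39 (SE 0.47, adjusted p = 0.461)) and Gria2 (2.49 FPKM at day 9 against 4.83 FPKM at day 12, a difference of -0.75 (SE 0.31, adjusted p = 0.562)) had the same order. Gria4, Grik1, Grik4 and Grin1 were lower in the day 9 libraries without overlap, at unadjusted p of 0.0691, 0.109, 0.113 and 0.0679 with limma. Gabbr1 was close between the ages, at 348 FPKM at day 9 against 361 FPKM at day 12. With 2 libraries at day 9, the spread within that age rests on 1 pair. Summed neuron markers were also lower there, at 53.8 to 79.7 FPKM against 101 to 459 FPKM at day 12, as were microglia markers, at 8.54 to 23.2 FPKM against 50.4 to 63.9 FPKM; neither list overlapped between the ages. The part of neuronal and microglial RNA in the 9 lower receptor genes was not tested. Of the 10 astrocyte markers 5 had an unadjusted p under 0.05 with limma and 0 passed the threshold. Their median difference was -0.37, day 9 minus day 12, beside -0.29 over the 33 receptor genes and -0.02 over all genes. Summed, these markers stood at 6267 and 6607 FPKM at day 9, within the day 12 range of 6242 to 10868 FPKM.

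**Figure D5:**
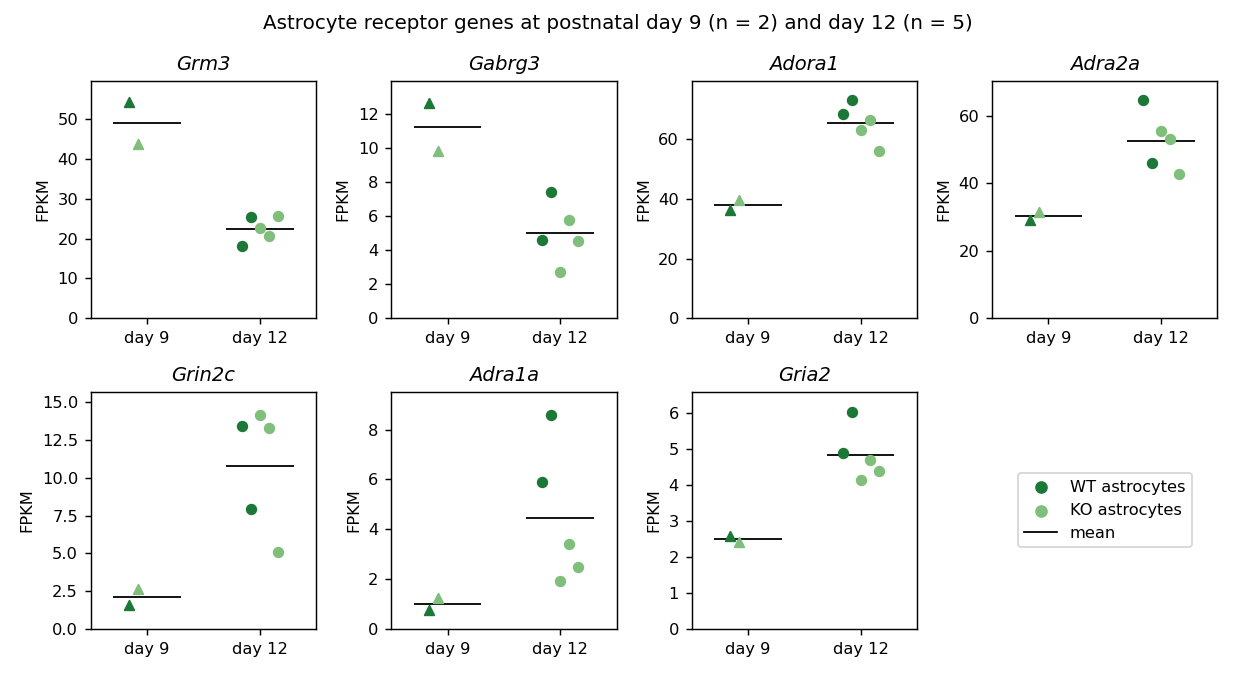
Level in FPKM of the 7 receptor genes with an unadjusted p under 0.05 between the ages, in the 2 astrocyte libraries of postnatal day 9 (triangles) and the 5 of day 12 (circles); dark green is WT, light green KO and the line is the mean. Grm3 and Gabrg3 are higher at day 9 and the other 5 lower, without overlap of the ages, and 0 of the 7 passed the adjusted threshold.

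The proteins that these receptors work with were read from 3 further lists of 62 genes. Of 55 tested between WT microglia and WT astrocytes with limma, 33 were lower and 5 higher in microglia and 17 did not pass, beside 24.5% lower and 29.1% higher among all genes tested. As for the receptors, a gene that passed the level filter through 1 cell type alone was bound to differ, so these counts only describe the lists. The median difference was -1.33, beside 0.21 over all genes. Of 20 auxiliary and scaffold genes tested, 11 were lower, 1 higher and 8 did not pass. Neto2, an auxiliary subunit of kainate receptors, was lower at -3.52 (SE 0.21, adjusted p = 2.37e-07); Shisa9 and Cacng7, auxiliary subunits of AMPA receptors, were lower at -5.37 (SE 0.32, adjusted p = 2.69e-07) and -3.53 (SE 0.27, adjusted p = 1.54e-06). Shisa9 stood at 68.2, 67.0 and 92.8 FPKM in WT astrocytes and 64.8, 83.9, 80.6 and 84.5 FPKM in KO astrocytes and at most 2.53 FPKM in microglia. The 1 higher gene was Kctd12, an auxiliary subunit of GABA-B receptors, at 1.60 (SE 0.31, adjusted p = 0.00125), with 103, 224 and 245 FPKM in WT astrocytes and 164, 161, 137 and 130.1 FPKM in KO astrocytes and 371, 487 and 665 FPKM in WT microglia and 408, 377 and 384 FPKM in KO microglia. Its value is uncertain, since Gm26778 covers 62.8% of its exons on the opposite strand. Of 16 genes of Gq and calcium signalling tested, 8 were lower, 2 higher and 6 did not pass. Gna11, a Gq-class alpha subunit, was lower at -2.87 (SE 0.21, adjusted p = 1.16e-06), Plcb1, a phospholipase C, at -5.44 (SE 0.41, adjusted p = 1.39e-06) and Camk2g, a calcium-dependent kinase, at -3.62 (SE 0.29, adjusted p = 2.12e-06). Rgs2, which shortens Gq signals, was higher at 5.83 (SE 0.42, adjusted p = 1.02e-06), with 3.77, 9.19 and 7.60 FPKM in WT astrocytes and 16.3, 9.23, 14.5 and 4.76 FPKM in KO astrocytes and 474, 382 and 405 FPKM in WT microglia and 434, 448 and 419 FPKM in KO microglia. Of 19 genes of Gi, Gs and cyclic AMP signalling tested, 14 were lower, 2 higher and 3 did not pass. Adcy8, a calcium-stimulated adenylyl cyclase, was lower at -3.91 (SE 0.31, adjusted p = 2.28e-06) and Pde4b, which breaks down cyclic AMP, at -1.95 (SE 0.22, adjusted p = 3.38e-05). Adcy7, another cyclase, was higher at 3.79 (SE 0.20, adjusted p = 1.19e-07) and Rgs10, a regulator of Gi signals, at 5.08 (SE 0.46, adjusted p = 5.76e-06). Between genotypes 0 of these genes passed with limma, of 43 tested in microglia, 54 in astrocytes and 55 for the interaction; unadjusted p under 0.05 were found for 6, 1 and 2 of them, against 7.96%, 4.19% and 6.62% of all genes. The authors' deposited table for microglia lists 3 of the 62. Per the authors' deposited table, mean normalised counts of WT and KO were 2870.3 and 4369 for Adcy7, 402 and 746 for Gna11, and 128 and 364 for Adcy9, all higher in KO. With age, 1 of 54 passed in astrocytes, against 0.097% of all genes: Rgs5, a regulator of Gq and Gi signals that is also a pericyte marker, was lower at day 9 at -2.06 (SE 0.20, adjusted p = 0.0245), with 28.1, 27.2 and 5.53 FPKM in WT astrocytes and 27.4, 6.47, 29.4 and 30.0 FPKM in KO astrocytes. Leaving out any 1 of the 7 libraries ended that call (adjusted p = 0.0561 to 0.129 with limma), while the difference stayed at -2.003 to -2.134. The 10 endothelial and mural markers, Rgs5 among them, summed to 27.02 to 41.6 FPKM in the day 9 libraries and 47.5 to 87.2 FPKM in the day 12 libraries; the part of vessel cells in this was not tested.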

How the data were processed

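Per the labels' protocols, TRIZOL extraction was followed by DNase, a column and NuGEN RNA-Seq V2 amplification. The submitters' processing notes name HTSeq 0.6.1p1, Cuffnorm, Cufflinks, DESeq2, FastQC, Bowtie2 2.2.3 and TopHat2 2.0.11 with build GRCm38. For the settings, the annotation and the strand, nothing is given in the sources used here. FPKM per gene and library were deposited by the authors without a stated scaling, so absolute depth is unknown; relative depth came from the steps between low values. Their deposited tables of genotype hold mean normalised counts (a signal, not raw counts), log2 fold changes, the test statistic as a score, and p-values with adjusted p-values, per the file headers. Names and coordinates are from GENCODE M21 (GRCm38), which matched 37605 of 39171 identifiers (96.0%). The test was limma 3.58.1 (R 4.3.3; moderated, with a mean-variance trend, two-sided) on log2(FPKM + 1), a scale that understates changes of low genes, for genes with a mean of at least 1 FPKM in the libraries fitted. Microglia were fitted alone; astrocytes had age in the fit. The procedure was tested on simulated data with large changes in genes of higher level only. That test does not cover small differences or genes of low level. Libraries were grouped by their titles. They are called biological replicates, but nothing says that each came from its own animal, so p-values measure the spread between these libraries. The receptor genes, the partner and marker lists and the tests were chosen with earlier results of these data known, so no pattern here is independent support for them. Per-library values are given for each receptor gene with a group mean of at least 1 FPKM, and of each partner list up to 4 genes with the smallest p among those past the threshold in a comparison; some genes that the rule names are not reported here. Alternatives were the pseudocount, the level filter, quantile normalisation, the replicate number as a block, other sets of libraries and leaving out each library.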

Additional observations from a re-analysis of the deposited data

Results flagged for a closer look

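Among the 39 receptor genes with a mean of at least 1 FPKM in a group, the 4 KO astrocyte libraries were searched for a library whose gap to the nearest other exceeded Dixon's 95% critical value for 4 samples; groups of 3 were not searched. Chance alone gives such a gap in about 1 in 20 groups, and 3 genes had one. Gria3 stood at 21.0 FPKM in KO astrocytes 1, against 2.72 to 4.14 FPKM in the other 3. Chrm2 stood at 3.36 FPKM in the same library, against 0.00489 to 0.475 FPKM. That library was also the highest of the 7 for neuron markers, at 459 FPKM, and the part of neuronal RNA in both values was not tested. Grin2d stood at 2.82 FPKM in KO astrocytes 4, against 0.406 to 0.617 FPKM, while neuron markers summed to 182 FPKM there. Of the receptor genes, 0 differed in genotype effect between the cell types with limma at the adjusted threshold, and 1 of 33 did at an unadjusted p under 0.05.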

How the results depend on the processing

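Of the receptor genes, limma called 0 in each alternative for genotype in microglia, genotype in astrocytes, the interaction and age; with so few calls among all genes, these counts of 0 say nothing about stability. For the cell types it called 23 to 30 (28 as reported): 23 without WT astrocytes 2 and in WT day 12 libraries only, and 30 with no level filter, a filter of 0.1 FPKM or quantile normalisation. Counts over all genes moved more; the cause was not tested. For genotype in microglia (13 genes) there were 25 with a pseudocount of 0.1, 7 with no filter, 37 in the fit of all 13 libraries, 3 with the replicate block and 18 to 48 when 1 library was left out. For genotype in astrocytes (3 genes) there were 5 with a pseudocount of 0.1, 0 with no filter, 0 in day 12 libraries only, 7 in the fit of all 13 libraries, 0 with the replicate block and 0 to 8 when 1 was left out. For the interaction (23 genes) there were 37 with no filter, 14 with the replicate block and 15 to 75 when 1 was left out. For age (13 genes) there were 7 with a pseudocount of 0.1, 20 with a filter of 0.1 FPKM, 35 with no filter, 0 with the replicate block and 6 to 82 when 1 was left out. For the cell types 8717 genes became 8382 with the replicate block and 7965 to 8722 when 1 was left out. Leaving out 1 library moved the Il33 difference in astrocytes between -109 and -101 FPKM, and the exact permutation test then could not reach 0.05. Among the genes whose differences the text prints, 4 turned in direction, none of which passed in the comparison concerned: between genotypes in microglia, Gabbr1 ran from -0.35 to 0.66 and Adora3 from -0.18 to 0.30; between cell types, Gria3 ran from -0.53 to 0.58 and Adrb1 from -0.17 to 0.72 when 1 library was left out, and Gria3 was -0.37 with quantile normalisation. Whether the replicate numbers pair the samples was not settled. Deviations of same-numbered libraries correlated at 0.0277, 0.0124 and 0.0227 in microglia, each the highest for its KO library. Those of other microglia pairs correlated at -0.0208 to -0.000447. In astrocytes same-numbered libraries correlated at 0.0179, -0.0791 and -0.0182. Values so near 0 in groups this small cannot decide it. With the replicate block, Grik4 (-1.19) and Grin2b (-1.33) were not called between cell types, Gabra3 (-1.22) was, and Rgs5 was not called with age (-2.07). Depth limits the genes under 1 FPKM most, and those of astrocytes more than those of microglia.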

Other observations

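Among all genes with a mean of at least 1 FPKM, Gabbr1 ranked 211 of 12916 in WT astrocytes and 1186 of 15747 in WT microglia. Gabbr2 ranked 590 in WT astrocytes and 14006 in WT microglia, near the lower end of the genes counted there. Adora3 ranked 3032 in WT microglia. When all genes with a value above 0 were tested, a pair of low receptor genes passed as higher in WT microglia than in WT astrocytes with limma: Chrm1 at 0.98 (SE 0.29, adjusted p = 0.0260) and Grik3 at 0.76 (SE 0.22, adjusted p = 0.0227). Gabra5, highest in WT microglia 2 and 3, was at 0.98 (SE 0.44, adjusted p = 0.126) and did not pass. Grik3 had overlapping libraries between the cell types and Chrm1 did not.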
